A study of Homo sapiens with 9 samples.

Results

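The genes for chondroitin sulfate, dermatan sulfate and hyaluronan were followed in SKOV3, a long-established line of human ovarian tumour cells, after exposure to an acetylated amino sugar and its deoxygenated analog. The set of 35 genes was chosen by name: enzymes that build, epimerise and sulfate the chains, hyaluronan synthases and hyaluronidases, hyaluronan receptors, and core proteins that carry the chains. Of these, 28 were measured on a probe set annotated to a single gene, 1 probe set each, among 14215 genes and 17859 probe sets in all. CHPF2, DSEL and HAS3 had only a probe set naming several genes, and CHST15, HAS1, HYAL1 and HYAL3 were matched to no named probe set, so none of these 7 was analysed here.

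Chondroitin sulfate is a chain of alternating glucuronic acid and N-acetylgalactosamine, built in the Golgi on serine residues of core proteins and then sulfated. Dermatan sulfate is the form in which an epimerase has turned part of the glucuronic acid into iduronic acid. Hyaluronan is made of glucuronic acid and N-acetylglucosamine, has no core protein and no sulfate, and is extruded at the plasma membrane. Hyaluronan synthases use UDP-N-acetylglucosamine directly, and the chondroitin enzymes use its carbon 4 epimer, UDP-N-acetylgalactosamine. In tumours, hyaluronan and its receptor CD44 are known for their part in adhesion and migration.

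The study compared 3 groups of 3 arrays, each array holding RNA from its own culture flask. Untreated cells were set beside cells given 50 µM peracetylated GlcNAc (Ac-GlcNAc, with 4 acetyl groups per the labels) and cells given 50 µM peracetylated 4-deoxy-GlcNAc (Ac-4-deoxy-GlcNAc, with 3), an analog without the hydroxyl group at carbon 4. All flasks held the same serum-containing medium for 3 days; whether untreated flasks received a vehicle is not given in the sources used here. A single cell line was used, and no labels tie flasks of different groups to each other.

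All values are log2 expression levels summarised by the authors with RMA, 1 per probe set and array, and the number of arrays sets the precision: a difference between groups of the 28 members had a median SE of 0.10. Array medians ran from 6.58 to 6.65. The narrowest spread of levels was that of untreated replicate 2 (SD 1.92), the other 8 having SDs from 2.07 to 2.18. Most epithelial and ovarian tumour markers fitted the label: 6 of 9 measured lay above the 75th percentile of mean level, with ERBB2 at 12.24 and KRT8 at 11.11. None lay under the 25th, but the ovarian marker WT1, the lowest of the 9 at 5.70, was under the median (6.63). MUC16 was not among those measured. Of 6 endothelial markers 3 lay under the 25th percentile (4.89) and none above the 75th, and of 6 leukocyte markers 4 lay under the 25th and 1 above the 75th. PTPRC, the pan-leukocyte marker, stood at 4.19, while CD68, a lysosomal protein abundant in macrophages, stood at 9.24 and fell by 0.37 with Ac-4-deoxy-GlcNAc (limma adjusted p = 0.0455). Of 6 fibroblast markers 3 lay under the 25th percentile and 1, COL1A1 at 8.66, above the 75th. The array means of these 6 ran from 5.89 to 6.04 untreated, from 5.59 to 5.74 with Ac-GlcNAc and from 5.60 to 5.66 with Ac-4-deoxy-GlcNAc. With Ac-4-deoxy-GlcNAc COL1A1 fell by 0.92, LUM by 0.46 and FAP by 0.40, DCN differed by -0.31 without passing, PDGFRB by -0.01 and THY1 by 0.18. Epithelial markers moved both ways: KRT19 fell by 0.49, KRT7 fell by 0.46 and CDH1 rose by 0.45 (limma adjusted p = 0.0122, 0.0287 and 0.0139). The endothelial marker PECAM1 rose by 0.41 (limma adjusted p = 0.0178). Other epithelial, ovarian and endothelial markers did not pass at 0.05 against untreated cells with either compound. Between the compounds, CDH1 (0.55) and the endothelial marker KDR (0.36) were called higher with Ac-4-deoxy-GlcNAc (limma adjusted p = 0.0112 and 0.0497). COL1A1 was called lower there (-0.56, limma adjusted p = 0.00781). The part of these marker values in any result was not tested. In RNA from whole flasks, fewer cells of a kind and less RNA per cell cannot be told apart.

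Probe sets differ in brightness for reasons other than transcript amount, so levels are given by their place in the table and not ranked between genes. Above the 75th percentile of mean level (8.46) lay the chain-building enzyme CHSY1, the epimerase DSE and the sulfotransferase CHST11. The receptor CD44, the hyaluronidase CEMIP2 and the core protein SRGN lay there too. CHSY1, a chondroitin synthase, had 9.04, 8.96 and 9.04 on the untreated arrays, and CD44 had 9.24, 8.92 and 9.04. Another 8 members lay between the median (6.63) and the 75th percentile: CSGALNACT2, CHPF, CHST3, CHST12, CHST14, UST, HYAL2 and HMMR. Under the 25th percentile were CSGALNACT1, CHSY3, HAS2, CEMIP, LYVE1, STAB2 and ACAN. HAS2, the only hyaluronan synthase measured on its own probe set, was at 3.68, 3.53 and 3.56 on the untreated arrays, brighter than only 0.728% of probe sets over all arrays. ACAN, the cartilage proteoglycan aggrecan, was at 4.63 ± 0.19 (SD, n = 3) in untreated cells, and LYVE1, a receptor of lymphatic endothelium, at 4.29 ± 0.32. Whether such dim probe sets were above background could not be read from the values used here.

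With Ac-4-deoxy-GlcNAc, 4 of the 28 members changed against untreated cells. CSGALNACT2, an enzyme that starts and extends chondroitin chains, rose by 1.57-fold, CEMIP2, a transmembrane protein that cleaves hyaluronan at the cell surface, by 1.34-fold and CD44, the main hyaluronan receptor, by 1.28-fold. HYAL2, a hyaluronidase anchored to the cell surface that cuts long hyaluronan into fragments, was 1.40-fold lower. A change was called at an adjusted p under 0.05 from limma (Benjamini-Hochberg, taken over the whole table of 17859 probe sets). At that threshold 11.0% of all probe sets were called in this comparison (5.38% higher and 5.64% lower), so 4 of 28 (14.3%) is close to the share in the whole table and is no result about the set. The other 24 members were not called, and 7 of the 28 had an unadjusted p under 0.05, as had 5579 of all 17859 probe sets, a larger share.

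HYAL2 had levels of 8.58, 8.69 and 8.68 on the untreated arrays, 8.49, 8.30 and 8.38 with Ac-GlcNAc, and 8.11, 8.27 and 8.11 with Ac-4-deoxy-GlcNAc. The untreated arrays were the highest, the Ac-4-deoxy-GlcNAc arrays the lowest, and no pair of groups overlapped. Against untreated cells HYAL2 fell by 0.49 on the log2 scale with Ac-4-deoxy-GlcNAc (SE 0.09, adjusted p = 0.00805). The difference with Ac-GlcNAc was -0.26 (95% interval -0.46 to -0.06, adjusted p = 0.124), which did not pass. HYAL2 was the only one of the 4 that stayed called under every one of the 16 other settings and left-out arrays, with an adjusted p of at most 0.0434.

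CSGALNACT2 had levels of 7.04, 6.48 and 6.76 on the untreated arrays, 7.03, 7.15 and 7.23 with Ac-GlcNAc, and 7.41, 7.16 and 7.66 with Ac-4-deoxy-GlcNAc. The Ac-4-deoxy-GlcNAc arrays lay above all untreated arrays, while those of Ac-GlcNAc overlapped both groups. The log2 difference from untreated was 0.65 (SE 0.15, adjusted p = 0.0165) with Ac-4-deoxy-GlcNAc and 0.38 (95% interval 0.06 to 0.70, adjusted p = 0.137) with Ac-GlcNAc. Untreated replicate 2 was the lowest of the 9 arrays. With that array left out the CSGALNACT2 difference was 0.51 (adjusted p = 0.0537), and with the third Ac-4-deoxy-GlcNAc array left out it was 0.53 (adjusted p = 0.0872). The call was kept in 8 of 10 other settings, and lost with array SD as a covariate (0.40, adjusted p = 0.153) and with untreated replicate 2 and the first Ac-4-deoxy-GlcNAc array both removed (0.51, adjusted p = 0.0821). Without untreated replicate 1 the difference with Ac-GlcNAc was called too, at 0.52 (adjusted p = 0.0484).

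CEMIP2 had levels of 8.54, 8.27 and 8.44 on the untreated arrays, 8.71, 8.73 and 8.68 with Ac-GlcNAc, and 9.03, 8.63 and 8.84 with Ac-4-deoxy-GlcNAc. Both treated groups lay above all untreated arrays and overlapped each other. The log2 difference from untreated was 0.42 (SE 0.11, adjusted p = 0.0330) with Ac-4-deoxy-GlcNAc and 0.29 (95% interval 0.05 to 0.53, adjusted p = 0.140) with Ac-GlcNAc. The CEMIP2 call ended when untreated replicate 2 (0.35, adjusted p = 0.0966) or 3 (0.43, adjusted p = 0.0611) was left out. It also ended when replicate 1 (0.32, adjusted p = 0.104) or 3 (0.41, adjusted p = 0.108) of Ac-4-deoxy-GlcNAc was left out. CEMIP2 was called in 6 of 10 other settings, and the 4 that lost it were array weights (0.32, adjusted p = 0.0646), the 6 compared arrays alone (0.42, adjusted p = 0.0794), array SD as a covariate (0.35, adjusted p = 0.179) and both arrays named for CSGALNACT2 removed (0.25, adjusted p = 0.205).

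CD44 had levels of 9.24, 8.92 and 9.04 on the untreated arrays, 9.28, 9.23 and 9.19 with Ac-GlcNAc, and 9.44, 9.27 and 9.55 with Ac-4-deoxy-GlcNAc. The Ac-4-deoxy-GlcNAc arrays lay above all untreated arrays, by a narrow gap between 9.24 and 9.27. The log2 difference of 0.36 (SE 0.11) had an adjusted p of 0.0499, at the edge of the threshold, and that with Ac-GlcNAc was 0.17 (95% interval -0.06 to 0.40, adjusted p = 0.318). Its call was lost when untreated replicate 2 (0.28, adjusted p = 0.142) or 3 (0.34, adjusted p = 0.0974) was dropped, or replicate 1 (0.35, adjusted p = 0.103) or 3 (0.29, adjusted p = 0.196) of Ac-4-deoxy-GlcNAc. CD44 was called in 5 of 10 other settings, and the 5 that lost it were cyclic loess (0.29, adjusted p = 0.0545), array weights (0.29, adjusted p = 0.0700), the 6 compared arrays alone (0.36, adjusted p = 0.107), array SD as a covariate (0.24, adjusted p = 0.286) and the same pair of arrays removed (0.27, adjusted p = 0.205). CD44 is spliced into many isoforms, and the table holds 1 value for the gene, so standard and variant forms were not told apart here.

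**Figure D1:**
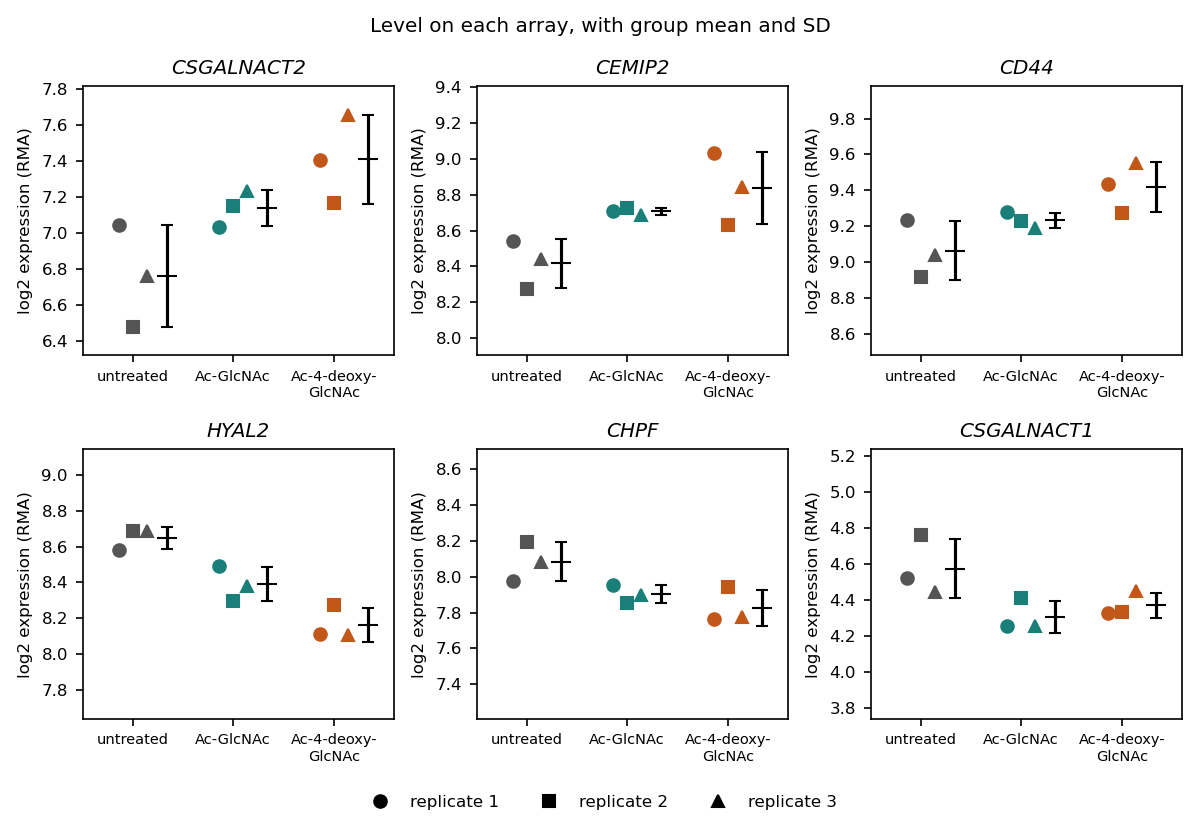
Log2 expression level (y axis) of 6 genes on each array, by group (x axis); point shapes are replicate numbers, and the black mark with bars is the group mean ± SD (n = 3). HYAL2 fell from 8.65 ± 0.06 in untreated cells to 8.16 ± 0.09 with Ac-4-deoxy-GlcNAc without overlap, while untreated replicate 2 is the lowest point for CSGALNACT2, CEMIP2 and CD44; CHPF and CSGALNACT1 were not called.

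The sequences before the starts of these 4 genes are shown because they are the members whose transcripts changed. Each is the 250 bases upstream of the RefSeq start on GRCh38.p14, 5′ to 3′ on the gene's strand, and capitals mark GGGCGG, the core of the GC box, on either strand. The RefSeq table held promoters for 23 of the 28 measured members. The windows are chr10:43138195-43138444 on the plus strand, chr9:71768514-71768763 on the minus strand, chr11:35138921-35139170 on the plus strand and chr3:50322746-50322995 on the minus strand.
CSGALNACT2: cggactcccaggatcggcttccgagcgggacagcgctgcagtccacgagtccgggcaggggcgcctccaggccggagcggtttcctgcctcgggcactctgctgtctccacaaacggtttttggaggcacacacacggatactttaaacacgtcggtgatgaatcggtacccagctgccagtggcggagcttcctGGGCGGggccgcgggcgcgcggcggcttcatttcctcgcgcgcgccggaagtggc
CEMIP2: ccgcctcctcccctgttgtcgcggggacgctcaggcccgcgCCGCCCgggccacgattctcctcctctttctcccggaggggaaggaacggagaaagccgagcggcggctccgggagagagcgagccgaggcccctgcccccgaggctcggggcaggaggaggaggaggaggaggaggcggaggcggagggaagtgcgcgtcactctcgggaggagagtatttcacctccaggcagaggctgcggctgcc
CD44: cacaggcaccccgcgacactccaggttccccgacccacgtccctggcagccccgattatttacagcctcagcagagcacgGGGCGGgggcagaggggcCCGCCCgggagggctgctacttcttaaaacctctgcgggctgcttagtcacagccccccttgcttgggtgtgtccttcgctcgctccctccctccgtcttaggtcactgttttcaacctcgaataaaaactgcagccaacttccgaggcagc
HYAL2: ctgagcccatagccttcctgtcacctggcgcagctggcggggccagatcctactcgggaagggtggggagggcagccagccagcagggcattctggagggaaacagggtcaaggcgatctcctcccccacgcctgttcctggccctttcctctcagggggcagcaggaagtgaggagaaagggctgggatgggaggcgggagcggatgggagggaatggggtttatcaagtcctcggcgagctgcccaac
GGGCGG occurred once before CSGALNACT2 and CEMIP2, in 2 places before CD44 and in no place in the HYAL2 window, and 42.6% of all 35116 promoter windows of this length hold it. TATAAA (10.7% of windows), CCAAT (32% of windows), CACGTG (6.34%) and TGANTCA (6.57%), each searched on both strands, were in none of the 4 windows, so no printed match overlapped that of another motif. The G and C content was 67.2%, 71.6%, 62.4% and 64.8% in the order printed.

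Of the 5 measured enzymes that start and polymerise chondroitin chains, CSGALNACT2 alone was called. Its paralog CSGALNACT1 was at 4.52, 4.76 and 4.44 untreated, 4.25, 4.41 and 4.25 with Ac-GlcNAc, and 4.33, 4.33 and 4.45 with Ac-4-deoxy-GlcNAc. These dim values overlapped between Ac-4-deoxy-GlcNAc and untreated arrays, with a log2 difference of -0.20 (95% interval -0.43 to 0.02, adjusted p = 0.194). CHPF, the chondroitin polymerising factor, was at 7.97, 8.19 and 8.08 untreated, 7.95, 7.85 and 7.90 with Ac-GlcNAc, and 7.76, 7.94 and 7.77 with Ac-4-deoxy-GlcNAc. Both treated groups lay below all untreated arrays, but the differences of -0.26 (adjusted p = 0.0946) with Ac-4-deoxy-GlcNAc and -0.18 (adjusted p = 0.238) with Ac-GlcNAc did not pass. CHSY1, which adds both sugars of the repeat, was at 9.02, 9.02 and 8.83 with Ac-GlcNAc and 8.76, 8.87 and 9.07 with Ac-4-deoxy-GlcNAc, overlapping the untreated arrays. Its difference with Ac-4-deoxy-GlcNAc was -0.11 (95% interval -0.34 to 0.11). CHSY3, a related synthase on a dim probe set, differed by -0.02 (-0.30 to 0.25).

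None of the 7 measured sulfotransferases was called by limma in any comparison, and against untreated cells none had an unadjusted p under 0.05. With Ac-4-deoxy-GlcNAc, the differences of CHST11 and CHST12, which sulfate N-acetylgalactosamine at its carbon 4, were -0.08 (95% interval -0.30 to 0.13) and -0.14 (-0.46 to 0.17). CHST3, which sulfates carbon 6, differed by 0.01 (-0.26 to 0.28), and CHST14, which sulfates dermatan, by -0.03 (-0.24 to 0.18). UST, which sulfates the uronic acid, was at 7.20, 7.18 and 7.25 untreated, 7.19, 7.08 and 7.55 with Ac-GlcNAc and 7.05, 7.08 and 6.92 with Ac-4-deoxy-GlcNAc. The 3 Ac-4-deoxy-GlcNAc arrays of UST were below all 6 others, with a difference of -0.26 from Ac-GlcNAc (unadjusted p = 0.0458, adjusted p = 0.355). CHST7 went the other way, with 6.49, 6.54 and 6.61 on the Ac-4-deoxy-GlcNAc arrays, above all 6 others. Its difference from Ac-GlcNAc was 0.19 (unadjusted p = 0.0576, adjusted p = 0.395). For DSE, the dermatan sulfate epimerase, the difference was -0.10 (-0.30 to 0.11) with the 4-deoxy compound and -0.03 (-0.23 to 0.18) with Ac-GlcNAc.

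On the hyaluronan side, the genes HAS2, for making the chain, and HMMR, for a protein that binds it, were not called. HAS2 was at 3.51, 3.65 and 3.56 with Ac-GlcNAc and 3.58, 3.43 and 3.54 with Ac-4-deoxy-GlcNAc, all dim, and its difference with the 4-deoxy compound was -0.07 (95% interval -0.27 to 0.13). Of 3 measured genes that cleave or depolymerise hyaluronan, CEMIP2 was called higher and HYAL2 lower with Ac-4-deoxy-GlcNAc. Over all probe sets 11.0% were called (5.38% higher, 5.64% lower), and 3 genes are too few for a result about the list. The CEMIP2 call held in only 2 of 6 fits with an array left out. CEMIP, a relative of CEMIP2 that takes part in hyaluronan breakdown, was dim and differed by -0.11 (-0.31 to 0.10). HMMR, a hyaluronan-binding protein of the mitotic spindle, was at 8.09 ± 0.22 untreated, 8.31 ± 0.12 with Ac-GlcNAc and 8.07 ± 0.06 with Ac-4-deoxy-GlcNAc (SD, n = 3 each). Its arrays did not overlap between the compounds, with a difference of -0.24 that did not pass (adjusted p = 0.378). The endothelial receptors LYVE1, STAB1 and STAB2 lay at mean levels of 4.13, 5.16 and 4.42 over all arrays, and none was called.

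None of the 6 measured core proteins was called with either compound by limma, and NCAN and BCAN had an unadjusted p under 0.05 with Ac-4-deoxy-GlcNAc. SRGN, serglycin, a core protein best known from blood cells, was bright at 8.86, 8.77 and 8.51 untreated, 8.82, 8.76 and 8.66 with Ac-GlcNAc and 8.66, 8.73 and 9.02 with Ac-4-deoxy-GlcNAc. The 3 groups of SRGN overlapped, and its difference with Ac-4-deoxy-GlcNAc was 0.09 (95% interval -0.17 to 0.35). CSPG4, a transmembrane chondroitin sulfate proteoglycan, was at 5.41, 5.26 and 5.36 untreated, 5.16, 5.37 and 5.21 with Ac-GlcNAc and 5.31, 5.26 and 5.16 with Ac-4-deoxy-GlcNAc. It differed from untreated by -0.10 with each compound (-0.30 to 0.11 in both intervals). The brain proteoglycans NCAN and BCAN, both under the median level, differed by -0.22 (adjusted p = 0.112) and -0.26 (adjusted p = 0.114) with Ac-4-deoxy-GlcNAc. BCAN was called without untreated replicate 1 (-0.34, adjusted p = 0.0457).

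With Ac-GlcNAc, 0 of the 28 members were called by limma, where 0.442% of all probe sets were called (0.207% higher and 0.235% lower). At an unadjusted p under 0.05 there were 4, beside 4719 of all 17859 probe sets, again a larger share: CSGALNACT2 and CEMIP2 with differences above 0, and CSGALNACT1 and HYAL2 with differences below 0. The 95% intervals of 27 of the 28 members lay inside a 1.5-fold change in either direction, and the exception was CSGALNACT2, whose interval reached 0.70. With Ac-4-deoxy-GlcNAc the intervals of all 24 members that were not called lay inside that range, from -0.51 (CHST13) to 0.35 (CHST7).

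The compounds were compared directly at the same dose and time, and 0 of the 28 members differed by limma, where 2.38% of all probe sets were called (0.896% higher and 1.48% lower). HYAL2 and UST had an unadjusted p under 0.05, both lower with the 4-deoxy compound. Of all 17859 probe sets 2429 had such a p, a larger share than 2 of 28. For the 4 genes that changed against untreated cells, Ac-4-deoxy-GlcNAc minus Ac-GlcNAc was -0.23 for HYAL2 (95% interval -0.43 to -0.02), 0.27 for CSGALNACT2 (-0.05 to 0.59), 0.13 for CEMIP2 (-0.11 to 0.37) and 0.19 for CD44 (-0.05 to 0.42). None of these 4 differences passed after adjustment, and 3 of the 4 intervals held 0. Both comparisons with untreated cells share the same 3 untreated arrays, so their values are set side by side without a test of likeness. In a test across the 3 groups HYAL2 (adjusted p = 0.0204) and CSGALNACT2 (adjusted p = 0.0387) passed, where 8.36% of all probe sets did.

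**Figure D2:**
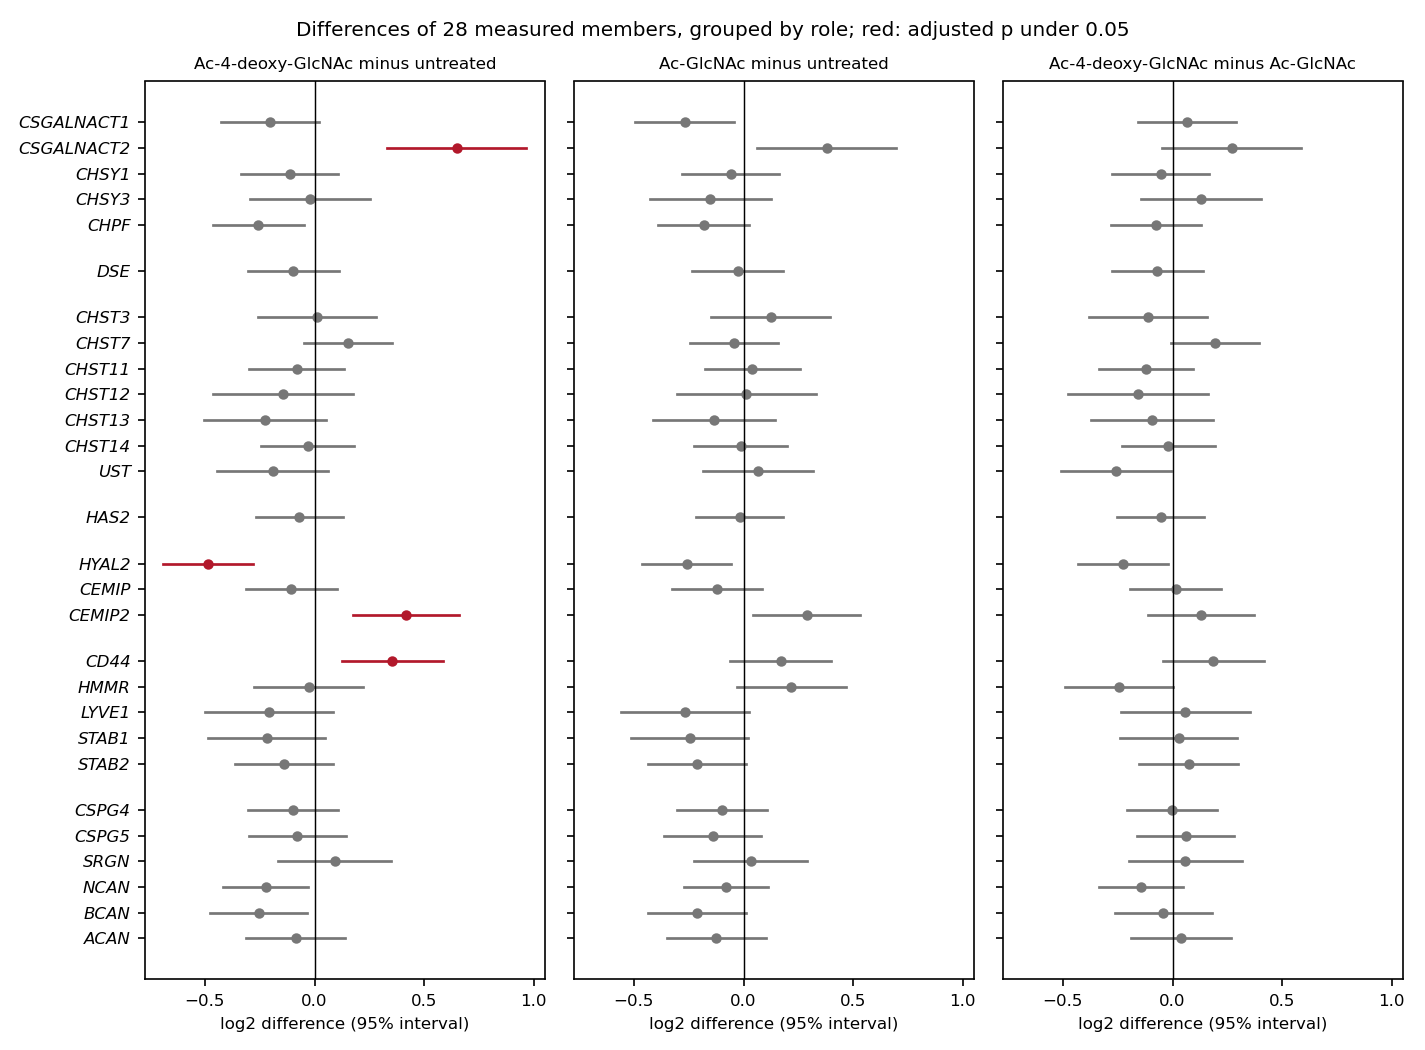
Log2 difference (x axis) with its 95% interval for the 28 measured genes (y axis, grouped by role: chain building, epimerase, sulfotransferases, hyaluronan synthase, hyaluronan cleavage, receptors, core proteins) in each of the 3 comparisons; red marks an adjusted p under 0.05. The 4 red genes are in the first panel, CSGALNACT2 at 0.65, CEMIP2 at 0.42, CD44 at 0.36 and HYAL2 at -0.49, and 0 are in the other panels.

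The arrays of Ac-4-deoxy-GlcNAc and untreated cells did not overlap for 9 of the 28 members, 4 higher and 5 lower, where 32.1% of all probe sets did not overlap (13.0% higher, 19.1% lower). With Ac-GlcNAc 6 members did not overlap, 1 higher and 5 lower, beside 32.3% of all probe sets (13.0% higher, 19.3% lower). Between the compounds 5 did not, 1 higher and 4 lower, beside 21.2% (9.56% higher, 11.6% lower). The median log2 difference of the members was -0.10 with Ac-4-deoxy-GlcNAc, beside -0.05 over all probe sets, and -0.07 with Ac-GlcNAc, beside -0.02.

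Most dim members were lower in both treated groups, and untreated replicate 2 stood apart for many of them. Of the 14 members under the median level, 14 were lower with Ac-GlcNAc than untreated and 13 were lower with Ac-4-deoxy-GlcNAc. Among all 8929 probe sets under the median level the counts were 7207 and 6796. Untreated replicate 2 was the highest of the 9 arrays for 10 of these 14 members, and for 60.5% of all such probe sets. Above the median level it was the lowest of the 9 arrays for 5 of 14 members (CSGALNACT2, CEMIP2, CD44, CHST3 and HMMR) and for 42.4% of such probe sets. The part of that array in the differences is shown by leaving it out. HYAL2 and CHPF, also above the median level, went the other way, with untreated replicate 2 as their highest array. Without untreated replicate 2, HYAL2 was the 1 member called with Ac-4-deoxy-GlcNAc (-0.47, adjusted p = 0.0187).

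**Figure D3:**
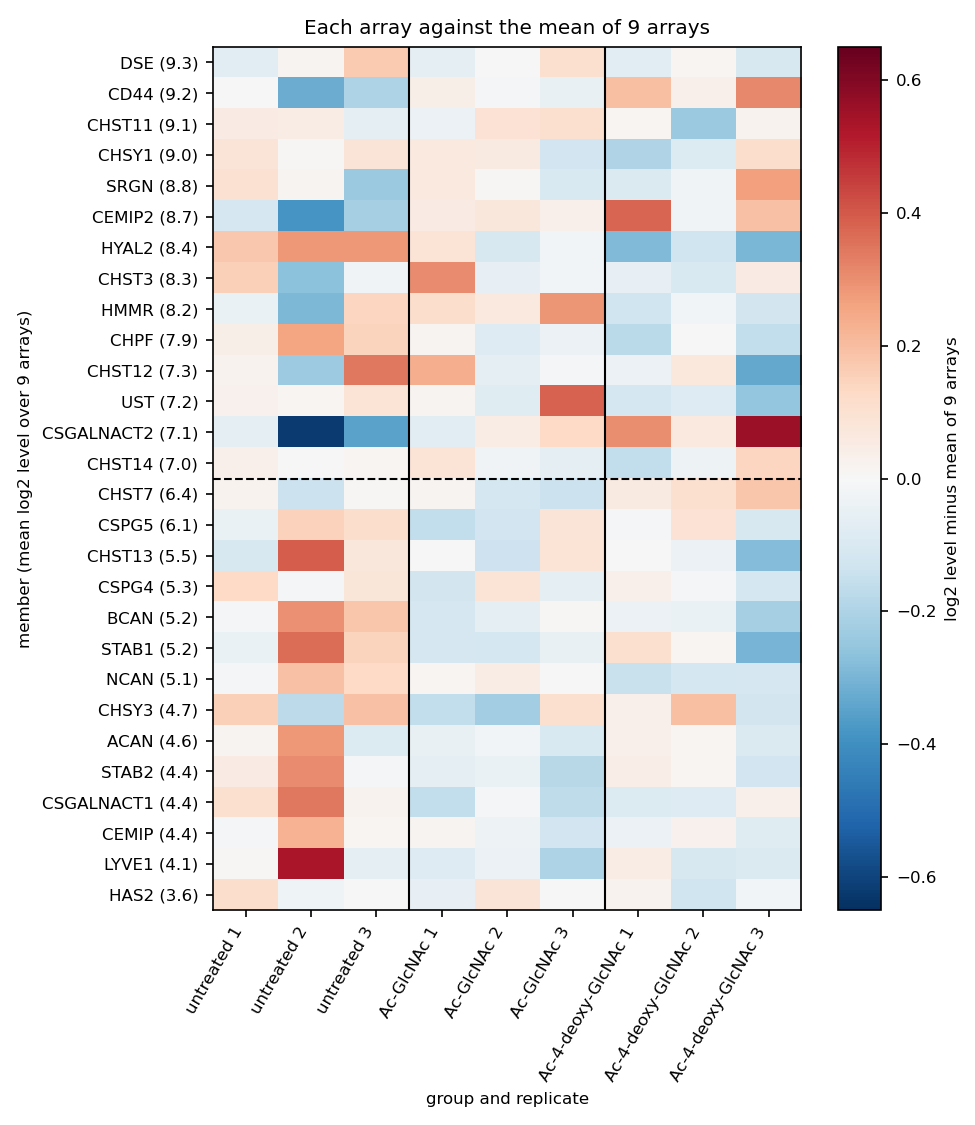
Log2 level on each array minus the gene's mean over 9 arrays (colour), for 28 genes ordered by mean level (y axis, mean in brackets; the dashed line is the median level of all probe sets) and 9 arrays (x axis). Untreated replicate 2 is red for most genes under the line, 10 of 14 having their highest value there, and blue for CSGALNACT2, CEMIP2 and CD44 above it.

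**Figure D4:**
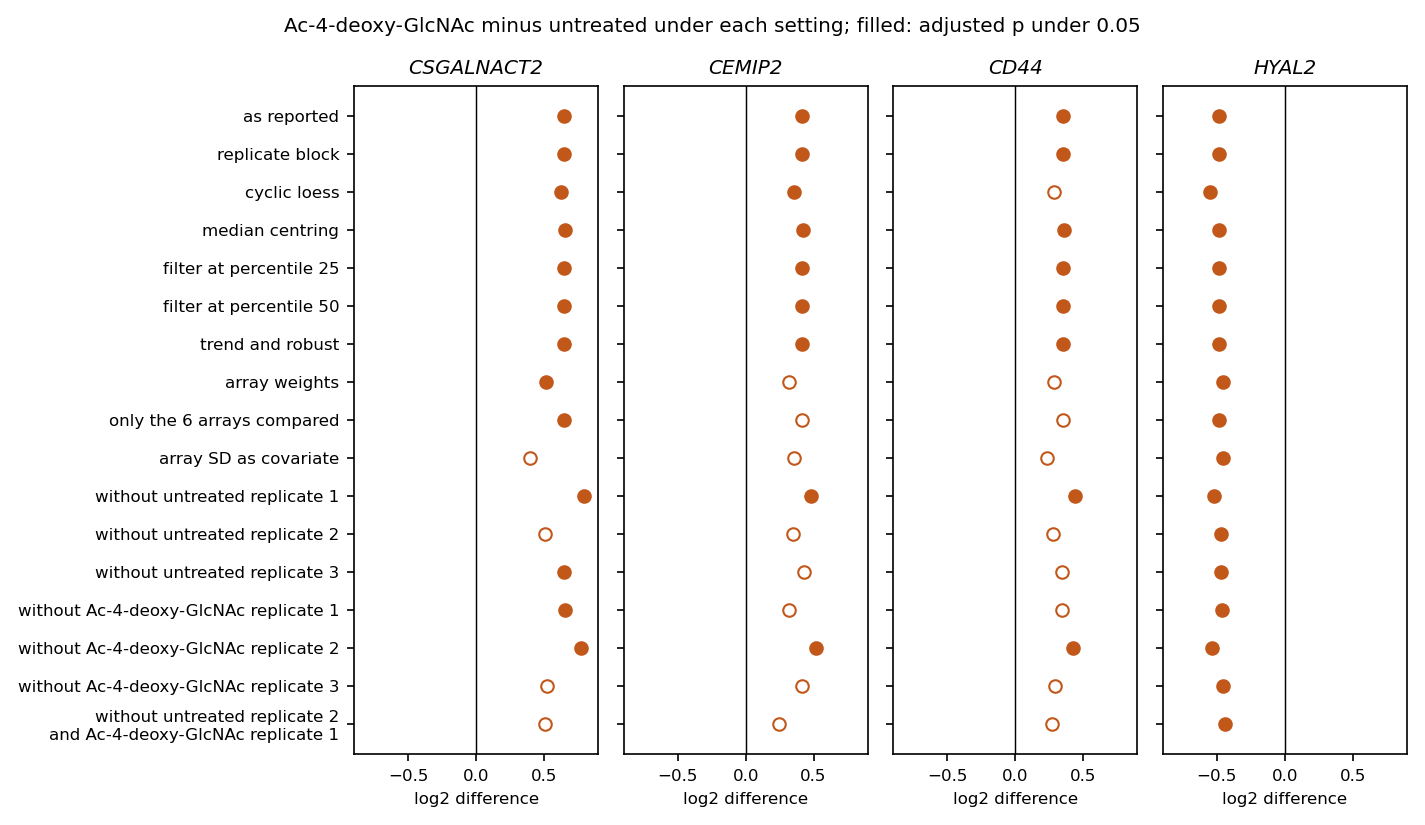
Log2 difference between Ac-4-deoxy-GlcNAc and untreated cells (x axis) for the 4 called genes under the reported fit and 16 other settings (y axis); filled points have an adjusted p under 0.05. HYAL2 is filled throughout, between -0.55 and -0.44, while CSGALNACT2 is open in 4 settings, CEMIP2 in 8 and CD44 in 9.

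The steps before and after the chains were read from further gene lists. Of 6 measured genes for the linkage region, which chondroitin and heparan sulfate share, B3GALT6, the second galactosyltransferase of the linker, was called lower with Ac-4-deoxy-GlcNAc and none higher. That is 16.7% of the list, beside 11.0% of all probe sets (5.38% higher, 5.64% lower). B3GALT6 was at 6.89, 6.80 and 6.86 untreated, 6.82, 6.67 and 6.99 with Ac-GlcNAc, and 6.48, 6.47 and 6.47 with Ac-4-deoxy-GlcNAc, below all 6 other arrays. It fell by 0.38 (SE 0.10, adjusted p = 0.0287), and its call ended when untreated replicate 3 (adjusted p = 0.0624) or any of the 3 Ac-4-deoxy-GlcNAc arrays (adjusted p = 0.0685, 0.0589 and 0.0971) was left out. Against Ac-GlcNAc the B3GALT6 difference of -0.35 did not pass (adjusted p = 0.0829). Of 10 measured genes for UDP-sugars and the sulfate donor, SLC35B3, a Golgi carrier of that donor, fell by 0.36 (SE 0.11, adjusted p = 0.0491) and none rose. This is 10% of the list, beside the same 11.0%, so neither count is a result about its list. The SLC35B3 call held in only 1 of 6 fits with an array left out, that without untreated replicate 1, and the other 5 gave adjusted p from 0.0705 to 0.167. UGDH, which makes UDP-glucuronic acid for both chains, was at 11.17, 11.18 and 11.45 untreated, 11.51, 11.52 and 11.88 with Ac-GlcNAc, and 11.17, 11.32 and 11.28 with Ac-4-deoxy-GlcNAc. The Ac-GlcNAc arrays of UGDH were the highest, but the difference of 0.37 from untreated did not pass (95% interval 0.11 to 0.63, adjusted p = 0.102).

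Of 18 further core proteins of chondroitin and dermatan sulfate, 2 rose and 3 fell with Ac-4-deoxy-GlcNAc, which is 27.8% of the list beside 11.0% of all probe sets (5.38% higher, 5.64% lower). VCAN, versican, the hyaluronan-binding matrix proteoglycan, was among the brightest at 11.81 ± 0.10 untreated and differed by -0.13 (95% interval -0.34 to 0.08). THBD, thrombomodulin, an anticoagulant receptor that can carry a chondroitin sulfate chain, was at 7.14, 7.14 and 6.99 untreated, 7.14, 7.26 and 7.06 with Ac-GlcNAc, and 6.31, 6.62 and 6.60 with Ac-4-deoxy-GlcNAc. The 3 Ac-4-deoxy-GlcNAc arrays lay below all 6 others. THBD fell by 0.58 against untreated (SE 0.11, adjusted p = 0.00645) and by 0.65 against Ac-GlcNAc (adjusted p = 0.0073), and both calls held with each array left out. BGN, biglycan, a small dermatan sulfate proteoglycan of the matrix, was at 6.45, 6.78 and 6.61 untreated, 6.26, 6.33 and 6.13 with Ac-GlcNAc, and between 5.94 and 6.06 on the 3 Ac-4-deoxy-GlcNAc arrays, with no overlap between any pair of groups. BGN fell by 0.61 with Ac-4-deoxy-GlcNAc (SE 0.10, adjusted p = 0.00411), a call that held with each array left out, and differed by -0.37 with Ac-GlcNAc (adjusted p = 0.0891). Of the 6 fibroblast markers given above, COL1A1, LUM and FAP were also called lower with Ac-4-deoxy-GlcNAc, where 5.64% of all probe sets were called lower. The arrays of LUM overlapped the untreated ones. The mean of the list was lower in both treated groups, but THY1 (0.18) and PDGFRB (-0.01) were not called and overlapped untreated arrays. FAP and DCN were dim and highest on untreated replicate 2. BGN, under the median level, was also highest on that array, and its call with Ac-4-deoxy-GlcNAc held without it. The part of these markers in the BGN values was not tested. DCN stands in both lists.

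The other 3 calls among these core proteins depended on which arrays were kept. COL9A2, a collagen chain that can carry chondroitin sulfate, fell by 0.42 (adjusted p = 0.0266), and lost its call without untreated replicate 2 or 3 or Ac-4-deoxy-GlcNAc replicate 1 or 3 (adjusted p = 0.0755, 0.0537, 0.0582 and 0.119). NRP1, neuropilin 1, a co-receptor of vascular growth factors and semaphorins, rose by 0.43 (adjusted p = 0.0219), and lost its call without untreated replicate 3 or Ac-4-deoxy-GlcNAc replicate 1 or 3 (adjusted p = 0.0578, 0.0768 and 0.0771). SMC3, a cohesin subunit listed for its proteoglycan form, rose by 0.38 (adjusted p = 0.0454), a call kept in 6 of 10 other settings. Of the 6 fits with an array left out, SMC3 was called only without untreated replicate 1, and the other 5 gave adjusted p from 0.0628 to 0.174. With Ac-GlcNAc SMC3 differed from untreated by 0.37 (limma adjusted p = 0.0969), and between the compounds by 0.02. COL9A2 had means of 5.62 untreated, 5.32 with Ac-GlcNAc and 5.21 with Ac-4-deoxy-GlcNAc. Untreated replicate 2 was the lowest array for SMC3 (8.69) and the highest for COL9A2 (5.78).

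None of 7 measured genes that degrade these chains (lysosomal enzymes, with HYAL4 and SPAM1) was called by limma with Ac-4-deoxy-GlcNAc against untreated cells. Nor was any of 12 further genes that bind hyaluronan or organise it, where 11.0% of all probe sets were called. Each list had 2 genes at an unadjusted p under 0.05. ARSK, a lysosomal sulfatase that acts on glucuronic acid sulfate, was at 8.25, 8.28 and 8.56 untreated, 8.48, 8.40 and 8.79 with Ac-GlcNAc and 7.80, 8.15 and 8.02 with Ac-4-deoxy-GlcNAc. Between the compounds ARSK fell by 0.57 (SE 0.13, adjusted p = 0.0366), lower with the 4-deoxy analog, a call kept in 7 of 10 other settings. Of the 6 fits with an array left out it held only without replicate 2 of Ac-4-deoxy-GlcNAc, and the other 5 gave adjusted p from 0.0635 to 0.18. With Ac-GlcNAc against untreated cells, 0 genes of these 5 further lists were called by limma, where 0.442% of all probe sets were. At an unadjusted p under 0.05 there were 0 of 6 linkage genes, 3 of 10 for UDP-sugars and the sulfate donor, 2 of 7 genes that degrade the chains, 8 of 18 core proteins and 2 of 12 that bind hyaluronan, beside 4719 of all 17859 probe sets. The 2 degradation genes were HYAL4 and SPAM1 and not lysosomal enzymes. Both were dim, at mean levels of 3.83 and 3.98, and highest on untreated replicate 2.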

How the data were processed

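RNA from 9 SKOV3 cultures was measured on GeneChip arrays, labelled with a whole-transcript kit. The deposited log2 values, 1 per probe set and array, came from RMA and Partek with hg18, per the submitters' processing notes; versions are not given in the sources used here. Of 17859 probe sets, 14413 named 1 gene in the platform annotation, and 14385 of those were found by gene ID in RefSeq GRCh38.p14, used for names and promoters only.

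One limma 3.58.1 model (R 4.3.3, lmFit, eBayes) held all arrays with group as its term. Tests were two-sided, Benjamini-Hochberg adjusted over all probe sets in a comparison and called at an adjusted p under 0.05. The fit was tested on simulated data with independent noise for each probe set and array. Such noise holds no pattern shared across an array, so that test does not bear on untreated replicate 2. Values per array were to be given for called members, those next by F test up to 6, CD44, HAS2, CHPF, CHSY1 and CSPG4, and called genes of other lists (up to 4 a list) were named. UST, CHST7, SRGN, UGDH, VCAN, HYAL4 and SPAM1, and further values of uncalled members, were picked after values were seen. Members, lists and settings were chosen with earlier results of these data known. Alternatives changed the normalization, the filter on dim probe sets, the variance model, the arrays kept and the covariates.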

Additional observations from a re-analysis of the deposited data

How the results depend on the processing

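Of 1281 differences of the 28 members under other settings, 1258 kept their side of the threshold, 21 lost their call, 2 gained one and 0 reversed, while 95 called in neither fit changed sign. The 4 members called with Ac-4-deoxy-GlcNAc became 2 with array weights, 2 on the 6 compared arrays, 1 with array SD as a covariate and 1 with both untreated replicate 2 and the first Ac-4-deoxy-GlcNAc array removed, and 1 to 5 with 1 array left out. With Ac-GlcNAc the count was 0 to 1 with 1 array left out, and between the compounds 0. Over all probe sets, the 1968 calls with Ac-4-deoxy-GlcNAc became 818 on the 6 compared arrays, 596 with the SD covariate, 730 without those 2 arrays and 604 to 3076 with 1 array left out. The 79 with Ac-GlcNAc (37 higher, 42 lower) became 47 with cyclic loess, 32 with median centring (19 higher, 13 lower), 154 above the median level (126 higher, 28 lower), 141 under the trend and robust variance model, 1760 with array weights, 48 on the 6 compared arrays, 2 with the SD covariate, 49 without those 2 arrays and 4 to 1359 with 1 array left out. Above the median level alone the calls with the 4-deoxy compound were 1681 (1128 higher, 553 lower), against 960 higher and 1008 lower over all levels. The 425 between the compounds became 1187 with array weights and 141 to 493 with 1 array left out. The causes were not tested. Array SD was 1.92 to 2.08 untreated and 2.07 to 2.18 treated, so it is partly confounded with group.

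With the replicate number as a block, 324 probe sets (96 higher, 228 lower) were called with Ac-GlcNAc, 2207 with the 4-deoxy compound, and the same 4 members. Same-numbered arrays correlated in their deviations from the group mean by -0.24 to 0.14, 0.05 to 0.37 and -0.11 to -0.06 in the 3 comparisons, and not every array correlated best with its own number, so the numbers were not taken as pairs. The labels name separate flasks, so p-values measure the spread between flasks. Whether the flasks belonged to 1 experiment or to several was not established here.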

Other observations

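Differences between members on the same array were read for 3 pairs chosen after their values were seen. Such a difference is free of a shift shared by both probe sets, and its absolute size has no meaning, so only its change between groups is described. For CEMIP2 minus HYAL2, which both act on hyaluronan at the cell surface, the log2 difference was -0.04, -0.41 and -0.25 on the untreated arrays, 0.22, 0.43 and 0.30 with Ac-GlcNAc, and 0.92, 0.36 and 0.74 with Ac-4-deoxy-GlcNAc. Both treated groups lay above all untreated arrays, by 0.55 and 0.90 in the mean, and overlapped each other. Each of these genes was already apart from untreated cells in both treated groups, in opposite directions. The gap in their difference therefore follows from those values and adds nothing to them. For CSGALNACT2 minus CSGALNACT1 it was 2.52, 1.72 and 2.32 untreated, 2.78, 2.74 and 2.98 with Ac-GlcNAc, and 3.08, 2.83 and 3.21 with Ac-4-deoxy-GlcNAc, again without overlap between untreated and treated arrays. These paralogs lie at different brightness, and untreated replicate 2 was lowest for one and highest for the other. For CD44 minus HMMR the difference was 1.12, 1.05 and 0.74 untreated, 1.01, 1.01 and 0.75 with Ac-GlcNAc, and 1.41, 1.13 and 1.51 with Ac-4-deoxy-GlcNAc, the last above the other 6 arrays. In an exact two-sided permutation test, 3 arrays against 3 cannot give a p under 0.1, so none of the 9 comparisons could pass a threshold of 0.05.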
